A study of Mus musculus with 6 samples.

Results

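The genes described here are 10 enzymes of polyunsaturated fatty acid desaturation and elongation. They were chosen by name, with earlier results of these data known. They are the desaturase genes Fads1, Fads2, Fads3 and Fads6, the elongase genes Elovl1, Elovl5 and Elovl7, the dehydratase genes Hacd2 and Hacd3, and the reductase gene Tecr. They make up 10 of the 55416 genes in the table of normalized counts, and all 10 were among the 18459 genes tested, whose mean over the 6 libraries reached 10 normalized counts. RNA-Seq was performed on organoids grown from small-intestinal crypts of C57BL/6 mice labelled WT, with duodenal and jejunal crypts cultured together. Organoids of 3 mice were treated for 5 days with 50 μg/ml low-density lipoprotein (LDL), the main cholesterol-carrying particle of plasma, or with PBS as the control. Each mouse gave 1 LDL-treated and 1 PBS-treated library, so the replicate number stands for the animal. The comparison addressed how LDL changes the transcriptome of crypt organoids, which hold several epithelial cell types together. In such bulk RNA, fewer cells of a type and less RNA per cell cannot be told apart.

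Mammals cannot make linoleic or alpha-linolenic acid and convert these dietary precursors to arachidonic, eicosapentaenoic and docosahexaenoic acid in the endoplasmic reticulum. Fads2 (the delta-6 desaturase) and Fads1 (the delta-5 desaturase) insert double bonds toward the carboxyl end, with electrons delivered by cytochrome b5. Between these steps the chain is lengthened in a cycle of condensation by an Elovl enzyme, reduction, dehydration by a Hacd enzyme and a final reduction by Tecr. Genes of the pathway are known targets of the sterol-regulated factor SREBP1, and its fatty acid products are membrane components, precursors of eicosanoids and ligands of nuclear receptors of the PPAR family.

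Fads1, Fads2 and Fads3 form a cluster on mouse chromosome 19 of GRCm39. Fads3 (ENSMUSG00000024664) lies at chr19:10018253-10037928 on the plus strand. Fads2 (ENSMUSG00000024665) follows at chr19:10038130-10079203 on the minus strand, with 201 bases between the ends of both genes. Fads1 (ENSMUSG00000010663) lies at chr19:10160167-10174241 on the plus strand, 80963 bases beyond Fads2. The 2 members with the largest fitted differences between treatments were Fads1 and Fads2, and their promoters are shown for that reason. Each sequence holds the 250 bases upstream of the start of the canonical transcript, read 5′ to 3′ on the strand of the gene from GRCm39, and covers chr19:10159917-10160166 for Fads1 and chr19:10079204-10079453 for Fads2. Capitals mark matches to CCAAT (the box bound by NF-Y), to the E-box CACGTG and to the sterol regulatory element TCACNCCAC, searched on both strands.
Fads1 promoter: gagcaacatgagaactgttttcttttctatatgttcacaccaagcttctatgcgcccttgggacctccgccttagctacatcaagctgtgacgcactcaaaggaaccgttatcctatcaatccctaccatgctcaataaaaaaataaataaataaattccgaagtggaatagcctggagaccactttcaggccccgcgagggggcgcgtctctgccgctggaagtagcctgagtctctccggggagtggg
Fads2 promoter: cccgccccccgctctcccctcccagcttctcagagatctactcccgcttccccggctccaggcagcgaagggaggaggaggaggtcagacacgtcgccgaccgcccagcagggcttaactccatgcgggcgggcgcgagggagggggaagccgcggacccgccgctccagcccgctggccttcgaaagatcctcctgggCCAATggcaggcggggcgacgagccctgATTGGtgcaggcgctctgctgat
The Fads2 window held CCAAT on the reverse strand and on the printed strand, starting 23 and 51 bases before the start of transcription, and the Fads1 window held none of these letters. Among the 12995 promoters of tested genes of this length, 36.6% held CCAAT, 7.67% held CACGTG and 1.16% held TCACNCCAC. CCAAT was found for 4 of the 10 genes (Fads2, Fads3, Hacd3 and Tecr), CACGTG for Hacd3 alone and TCACNCCAC for 0 of 10. On either strand, the GC box GGGCGG was found for 7 of 10 and in 48.1% of all promoters. A direct repeat of AGGTCA spaced by 1 base, the form bound by PPAR with RXR, was present in 0.0308% of promoters and in 0 of the 10. The GC content was 49.6% for Fads1 and 70.4% for Fads2, beside a median of 56.4%. A match to these letters describes the window only, and none of them was tested for binding.

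The other members lie on separate chromosomes or far apart. Fads6 (ENSMUSG00000044788) is at chr11:115170448-115188489, Elovl1 (ENSMUSG00000006390) at chr4:118284346-118290150, Elovl5 (ENSMUSG00000032349) at chr9:77818113-77891802 and Elovl7 (ENSMUSG00000021696) at chr13:108350937-108423639. Hacd2 (ENSMUSG00000035376) is at chr16:34842791-34930429, Hacd3 (ENSMUSG00000033629) at chr9:64877424-64929186 and Tecr (ENSMUSG00000031708) at chr8:84298325-84334600. Some exons lie over genes of the opposite strand. Hacd3 shares 1906 exon bases with Ints14, Tecr shares 310 with D830024N08Rik and Elovl1 shares 53 with Cdc20. The kit kept strand, but the strand setting of the counting is not given in the sources used here, so reads of these overlaps could have been counted for either gene.

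The libraries held 22061545 to 31073360 reads on genes. The LDL-treated library of mouse 1 stood apart, with 7.62% of its reads on the ribosomal RNA gene Rn18s-rs5 and 35781 genes detected, and the PBS-treated library of mouse 2 held 3.02% on the same gene. In the other 4 libraries this share was 0.0826% to 0.225%. The LDL-treated library of mouse 3 had 32751 genes detected, that of mouse 2 had 29870 and the PBS-treated libraries had 29285 to 30018. The third mouse is labelled WT, but its animal identifier begins with other letters than those of mice 1 and 2. Results are therefore also given without the libraries of mouse 3.

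Fads1 and Fads2 were lower in the LDL-treated organoids of every mouse. Normalized counts are the reads of each gene divided by the size factor of its library. Fads1 was at 7433, 7882 and 7137 normalized counts in the PBS-treated organoids of mice 1, 2 and 3, and at 3426, 5819 and 3663 in their LDL-treated organoids. All 3 LDL-treated libraries lay below all PBS-treated libraries, and that of mouse 2 was nearest to the controls. The mean was 7484 ± 375 with PBS and 4303 ± 1319 with LDL (SD, n = 3 each), and LDL over PBS was 0.461, 0.738 and 0.513 within mice 1, 2 and 3. On the log2(normalized count + 1) scale, Fads1 differed by -0.84 (SE 0.19, 95% interval -1.28 to -0.40), which corresponds to 55.9% of the PBS level.

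Fads2 showed the same pattern. It was at 11218, 12537 and 12165 normalized counts with PBS and at 5726, 9789.7 and 6957 with LDL in mice 1, 2 and 3. Again no LDL-treated library reached the lowest PBS-treated library, and mouse 2 showed the smallest difference. The means were 11973 ± 680.3 and 7491 ± 2084 (SD, n = 3 each), with LDL over PBS at 0.510, 0.781 and 0.572 within the mice. The log2 fold change was -0.71 (SE 0.18, 95% interval -1.14 to -0.28), or 61.1% of the PBS level.

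The test of both genes depended on whether the mouse entered the fit. Calls required both a Benjamini-Hochberg adjusted p below 0.05 and a difference beyond 1.5-fold. Without a mouse term, limma gave adjusted p = 0.0789 for Fads1 and 0.103 for Fads2, and neither was called. With the mouse as a block, both were downregulated, with limma adjusted p = 0.00514 for Fads1 and 0.00799 for Fads2. DESeq2 on the recovered reads called both genes without the block as well (adjusted p = 0.00321 and 0.0112), whereas edgeR's quasi-likelihood test called them only with the block (adjusted p = 0.0824 and 0.109 without it, 0.00370 and 0.00784 with it). Without the LDL-treated library of mouse 2, limma gave adjusted p = 0.000494 for Fads1 and 0.00199 for Fads2 with no mouse term. In the other 5 fits that left out 1 library, neither gene was called (limma adjusted p = 0.165 to 0.317 for Fads1 and 0.190 to 0.346 for Fads2). Without the LDL-treated library of mouse 1, the log2 fold changes were -0.70 and -0.54, the second under 1.5-fold. With the block and without mouse 3, neither was called (adjusted p = 0.111 and 0.147 in limma, log2 fold changes -0.78 and -0.66). With the block and without mouse 1, Fads1 was called (adjusted p = 0.00896 in limma) and Fads2 passed the p threshold (0.0289) but not the fold threshold, at a log2 fold change of -0.58.

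**Figure D1:**
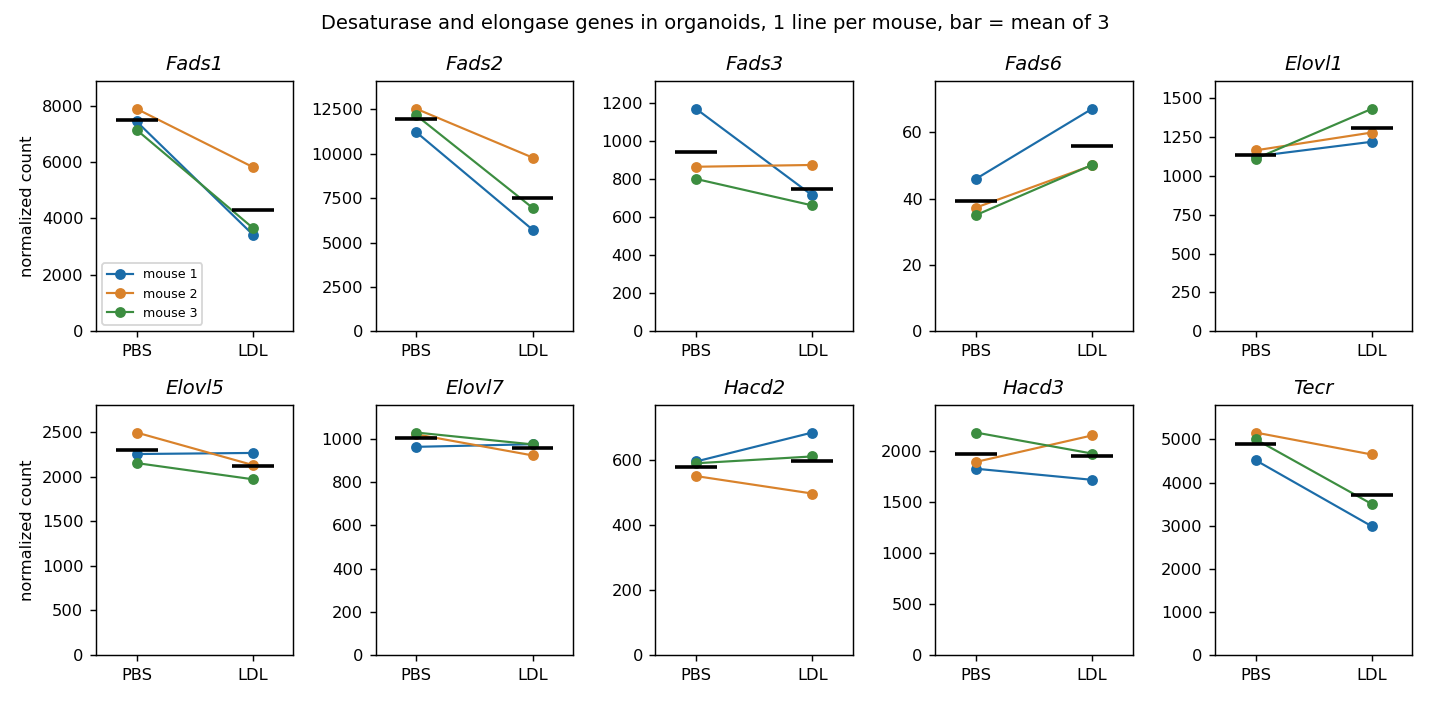
Normalized counts (linear axes from 0) of the 10 genes in PBS- and LDL-treated organoids, with 1 line for each of 3 mice and a black bar for the mean of 3. Fads1, Fads2 and Tecr were lower with LDL in every mouse, and Fads6 and Elovl1 were higher in every mouse. The lines of Fads3, Elovl5, Elovl7, Hacd2 and Hacd3 ran in different directions.

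Fads3, a relative of Fads1 and Fads2 that acts on sphingoid bases, was at 1168, 864 and 799 normalized counts with PBS and at 714, 873 and 661 with LDL in mice 1, 2 and 3. The groups overlapped, because the LDL-treated library of mouse 2 lay above 2 of the PBS-treated libraries. The log2 fold change was -0.32 (SE 0.17, 95% interval -0.71 to 0.07), and Fads3 did not pass the test without the block (limma adjusted p = 0.338) or with it (0.148). Its size depended on mouse 1, as the log2 fold change was -0.16 without PBS replicate 1 and -0.13 with the block and without mouse 1 (limma adjusted p = 0.622 and 0.640). With the block and without mouse 2 it was -0.49 (limma adjusted p = 0.00111), still under 1.5-fold. LDL over PBS was lowest in mouse 1 and highest in mouse 2 for Fads1, Fads2 and Fads3, as it was for Tecr on another chromosome.

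Fads6 was scarcely detected, with 30 to 45 reads in the PBS-treated and 55 to 60 in the LDL-treated libraries. It was at 45.9, 37.3 and 35.01 normalized counts with PBS and at 67.1, 50.02 and 50.17 with LDL. Every LDL-treated library lay above every PBS-treated library, and Fads6 is the only desaturase of the 4 for which this held. Counting error alone gives the 30 reads of the PBS-treated library of mouse 2 an exact 95% Poisson interval of 20.2 to 42.8. The log2 fold change was 0.49 (SE 0.23, 95% interval -0.05 to 1.02), with limma adjusted p = 0.292 without and 0.148 with the block, so the difference was not called.

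Elovl5, the elongase that acts on the polyunsaturated acids between the Fads2 and Fads1 steps, was at 2254, 2495 and 2153 normalized counts with PBS and at 2266, 2131 and 1971 with LDL in mice 1, 2 and 3. The groups overlapped, and LDL over PBS within mice was 1.01, 0.854 and 0.916. Its log2 fold change was -0.12 (SE 0.10, 95% interval -0.34 to 0.11, limma adjusted p = 0.568, and 0.377 with the block). The lower limit of this interval is above the fitted log2 fold changes of Fads1 and Fads2. The intervals of Elovl5 and Fads2 (-1.14 to -0.28) overlap, however.

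Elovl1 and Elovl7, which mainly lengthen saturated and monounsaturated chains, also did not pass the test. Elovl1 was at 1127, 1166 and 1111 normalized counts with PBS and at 1221, 1280.4 and 1433 with LDL. No LDL-treated library overlapped the controls, and the difference was upward in each mouse (LDL over PBS 1.08, 1.10 and 1.29). The log2 fold change of Elovl1 was 0.21 (SE 0.09, 95% interval -0.01 to 0.42, limma adjusted p = 0.274, and 0.148 with the block). Elovl7 showed little spread, at 964, 1021 and 1029.9 normalized counts with PBS and 976, 924 and 975 with LDL. Its groups overlapped, with a log2 fold change of -0.07 (SE 0.09, 95% interval -0.27 to 0.13, limma adjusted p = 0.713).

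Tecr, which carries out the last reduction of every elongation round, was at 4518, 5159 and 5004 normalized counts with PBS. With LDL it was at 2985, 4649.7 and 3501 in mice 1, 2 and 3. It was lower with LDL in every mouse (LDL over PBS 0.661, 0.901 and 0.700), but the LDL-treated library of mouse 2 lay above the PBS-treated library of mouse 1, so the groups overlapped. The means were 4894 ± 335 and 3712 ± 852 (SD, n = 3 each), with a log2 fold change of -0.42 (SE 0.16, 95% interval -0.79 to -0.05). Limma gave adjusted p = 0.199 without the block and 0.0280 with it. The difference stayed under 1.5-fold, so Tecr was not called in either fit. Without the LDL-treated library of mouse 2, the log2 fold change was -0.60 and Tecr was called with no mouse term (limma adjusted p = 0.00856). Leaving out LDL replicate 1 gave -0.28 (limma adjusted p = 0.410), and Tecr was not called in any of the other 5 fits that left out 1 library (limma adjusted p = 0.289 to 0.470). With the block, the adjusted p rose to 0.141 in limma without mouse 1 (log2 fold change -0.33) and to 0.292 without mouse 3 (-0.37). Without mouse 2 it fell to 1.05e-05 in the blocked limma fit, at a log2 fold change of -0.56, still under 1.5-fold.

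The dehydratases, which remove water from the hydroxyacyl intermediate, showed no common direction. Hacd2 was at 594, 549 and 589 normalized counts with PBS and at 683, 496 and 609.6 with LDL, so that the LDL-treated libraries held both the highest and the lowest value. Hacd3 was at 1826, 1893 and 2181 with PBS and at 1717, 2153 and 1975 with LDL, and its groups overlapped too. The 95% interval of the log2 fold change was -0.27 to 0.34 for Hacd2 and -0.28 to 0.25 for Hacd3 (estimates 0.03 and -0.02, limma adjusted p = 0.922 and 0.963). Changes of more than 1.5-fold lie outside both intervals.

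Over the 10 genes, 0 were called higher and 0 lower without a mouse term, beside 0.878% and 0.395% of all genes tested. With the mouse as a block, 0 were called higher and 2 lower (Fads1 and Fads2), beside 5.68% and 3.46% of all genes. At any fold change, 3 members were lower with an adjusted p under 0.05 in the blocked fit (Fads1, Fads2 and Tecr), beside 7.45% of all genes. The same 3 genes had an unadjusted p under 0.05 and lower values in the fit without a mouse term, where 9.73% of all genes did, and 0 members were higher at that level, beside 9.96%. All LDL-treated libraries lay above all PBS-treated libraries for 2 members (Fads6 and Elovl1) and below them for 2 (Fads1 and Fads2), beside 11.9% and 12.3% of all genes. For these 4 genes an exact two-sided permutation test of the mean log2 values gave p = 0.1, the smallest that 3 against 3 libraries allow. Expression was lower in every mouse for 3 of the 10 (Fads1, Fads2 and Tecr, 26.8% of all genes) and higher in every mouse for 2 (Fads6 and Elovl1, 24.2%). The median log2 fold change was -0.09 over the members and -0.02 over all genes tested.

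**Figure D2:**
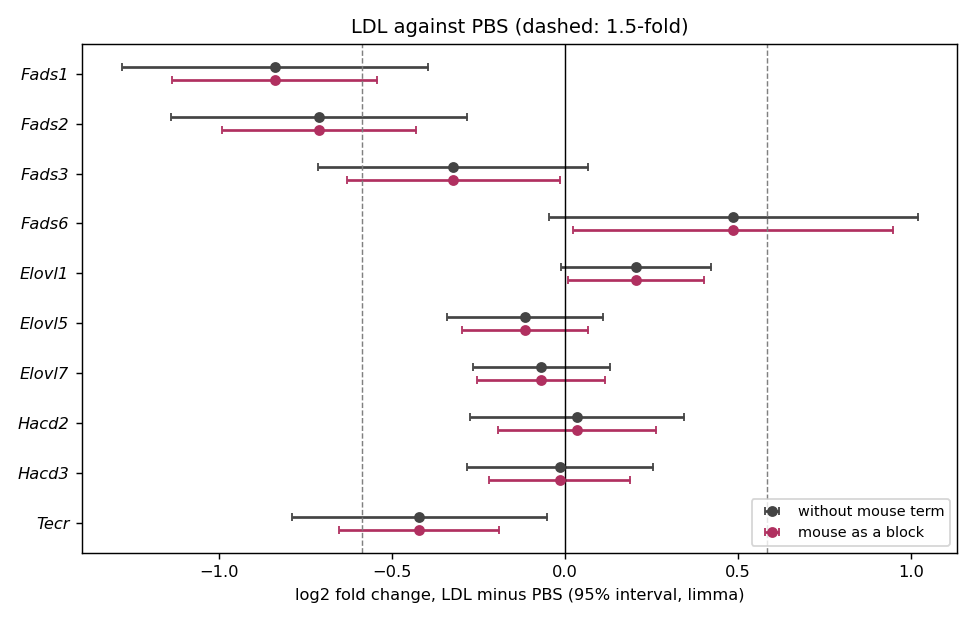
Log2 fold changes of the 10 genes, LDL minus PBS on log2(normalized count + 1), with 95% intervals from limma without a mouse term (grey) and with the mouse as a block (red), and dashed lines at 1.5-fold. The estimates are the same in both fits and the intervals of Fads1 (-0.84), Fads2 (-0.71) and Tecr (-0.42) narrow with the block.

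Per kilobase of merged exon, a scale on which genes can be compared, the first desaturase and the reductase were the most abundant members. In PBS-treated organoids Fads2 was at 1833 ± 104 normalized counts per kb, Tecr at 1431 ± 97.8, Fads1 at 1336 ± 67.0 and Elovl5 at 405 ± 31.0 (SD, n = 3). Elovl1 (209), Fads3 (208), Hacd3 (182) and Elovl7 (176) followed closely, each overlapping its neighbour in the order, and Hacd2 (90.3) and Fads6 (5.92) were lowest. Tecr and Fads1 also overlapped, whereas Fads2 lay above Tecr in all PBS-treated libraries. In LDL-treated organoids the first 5 genes kept this order, at 1147 ± 319, 1085 ± 249, 768 ± 235, 374 ± 26.0 and 241 ± 20.2 per kb, but Fads2 now overlapped Tecr. Fads3, at 165 ± 24.4 per kb, came behind Hacd3 (180.4) and Elovl7 (168), which overlapped each other, as Elovl7 and Fads3 did. Elovl1 no longer overlapped the gene after it.

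**Figure D3:**
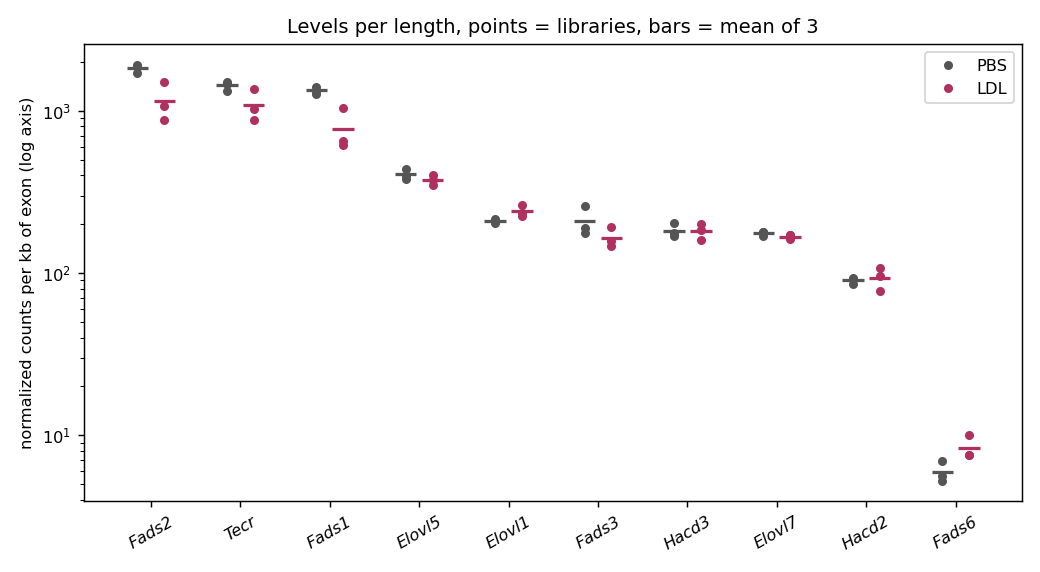
Normalized counts per kilobase of merged exon (log axis) of the 10 genes in the order of their PBS means, with a point for each library and a bar for the mean of 3. The PBS means of Fads2, Tecr and Fads1 are 1833, 1431 and 1336 per kb and that of Fads6 is 5.92, and the LDL points of Fads2 and Tecr overlap.

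Ratios between members within a library do not depend on its size factor. Fads1 over Fads2 was 0.626 ± 0.0381 with PBS and 0.573 ± 0.0403 with LDL (SD, n = 3 each), with overlapping libraries (exact two-sided permutation test, p = 0.3). Fads2 over Elovl5 was 5.22 ± 0.376 with PBS and 3.55 ± 1.03 with LDL, and Fads1 over Elovl5 was 3.26 ± 0.0858 and 2.03 ± 0.628. Neither of these overlapped between treatments (exact two-sided permutation test, p = 0.1 each). Tecr over Hacd3 was 2.50 ± 0.217 with PBS and 1.89 ± 0.234 with LDL, also with no overlap (exact two-sided permutation test, p = 0.1). For Fads1 and Fads2 the 3 mice were closer to each other with PBS than with LDL. The highest PBS-treated library was 1.10-fold the lowest for Fads1 and 1.12-fold for Fads2, and the highest LDL-treated library was 1.70-fold and 1.71-fold the lowest.

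Apart from Fads1, Fads2 and Fads3, 10 genes tested lie wholly or partly within 100000 bases of the cluster. Their log2 fold changes ranged from -0.70 for Rab3il1 to 0.40 for Best1, both with means under 25 normalized counts, and none was called without a mouse term. Next to Fads1, Tmem258 was at 794 ± 70.7 with PBS and 680.5 ± 153 with LDL (log2 fold change -0.24, limma adjusted p = 0.474), and Myrf, a transcription factor gene, was at 2649.8 ± 117 and 3163 ± 485 (0.24, limma adjusted p = 0.325). Dagla, which codes for a lipase that releases the endocannabinoid 2-arachidonoylglycerol, was at 329 ± 61.1 and 228 ± 24.6, a log2 fold change of -0.52 (limma adjusted p = 0.154, and 0.0194 with the block, under 1.5-fold). Fth1, the ferritin heavy chain gene on the other side of Fads3, was at 10444 ± 1072 and 12294 ± 1714 (0.23, limma adjusted p = 0.397).

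**Figure D4:**
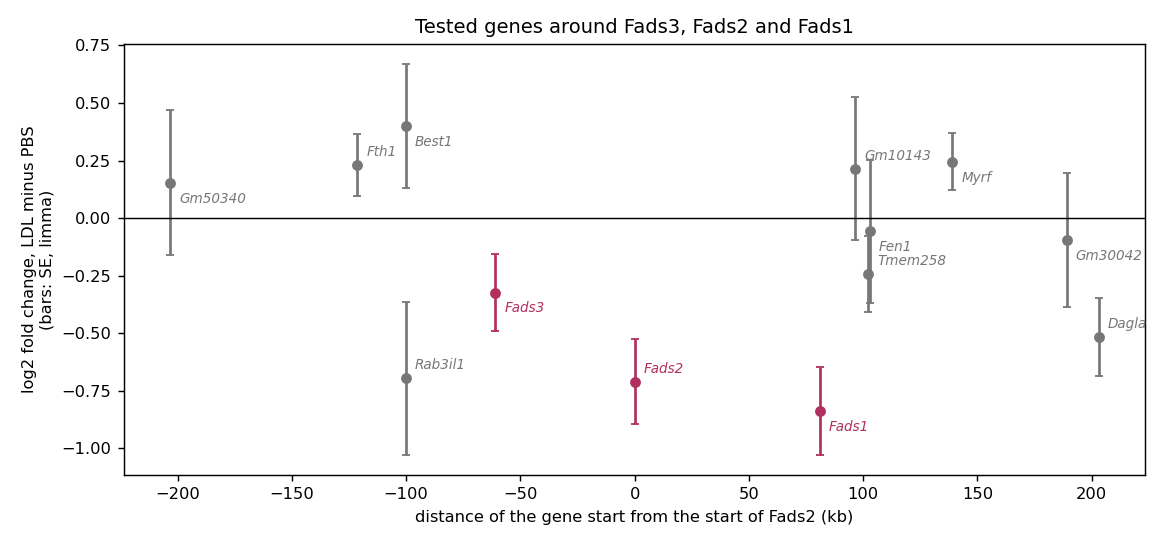
Log2 fold changes (LDL minus PBS, bars: SE from limma without a mouse term) of the 13 genes tested around Fads3, Fads2 and Fads1, against the distance of each gene's start from the start of Fads2 in kb. Fads2 (-0.71) and Fads1 (-0.84) lie between neighbours whose values reach from -0.70 to 0.40.

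Lists of related genes follow. Over all genes tested, 0.878% were called higher and 0.395% lower without a mouse term, and 5.68% and 3.46% with the block. The remaining enzymes of the elongation cycle held no called gene. Of 4 tested, 0 were called in either fit, and their median log2 fold change was 0.12. Elovl6, which lengthens palmitate to stearate, was at 3924 ± 289 with PBS and 5049 ± 438 with LDL, higher in every mouse (log2 fold change 0.36, limma adjusted p = 0.115, and 0.0309 with the block, under 1.5-fold). Hacd4 differed by 0.16 (limma adjusted p = 0.785) and Hsd17b12, the ketoacyl reductase of the cycle, by -0.13 (limma adjusted p = 0.548). Elovl2, Elovl3 and Elovl4 were below the filter.

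Among the other desaturases, 5 of the 6 tested had lower means with LDL (median log2 fold change -0.48). Without a mouse term 0 were called, and with the block 2 were downregulated and 0 upregulated. Scd1, a stearoyl-CoA delta-9 desaturase that makes oleate, was at 12575, 17439 and 10156 normalized counts with PBS and at 3703, 10295 and 4025 with LDL in mice 1, 2 and 3. Its groups overlapped through mouse 2, and the log2 fold change was -1.29 (SE 0.38, limma adjusted p = 0.131, and 0.00281 with the block). Scd2, its close relative, was at 54508 ± 1978 and 34378 ± 5883, with no overlap (log2 fold change -0.68, limma adjusted p = 0.0779, and 0.0109 with the block). Scd3 differed by -0.73 (limma adjusted p = 0.253, and 0.0509 with the block). Degs2, a dihydroceramide desaturase, was the one gene with higher values, at a log2 fold change of 0.30 (limma adjusted p = 0.139, and 0.0338 with the block, under 1.5-fold). Reads of the near-identical Scd genes can be split between them by the counting.

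Of the 6 genes for cytochrome b5 and its reductases, 0 were called in either fit (median log2 fold change -0.04). Cyb5a, the electron donor of the desaturases, was at 5218 ± 1004 normalized counts with PBS and 4052 ± 1110.2 with LDL, lower in every mouse (log2 fold change -0.38, limma adjusted p = 0.362, and 0.0175 with the block, under 1.5-fold). Cyb5b differed by -0.06 (limma adjusted p = 0.848) and Cyb5r2 by 0.24 (limma adjusted p = 0.819).

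Acyl-CoA synthetases and lysophospholipid acyltransferases activate fatty acids or place them in phospholipids. Among 12 tested genes of these enzymes, 1 was upregulated and 0 downregulated without a mouse term, and 2 and 0 with the block (median log2 fold change 0.15). Mboat1, a lysophospholipid acyltransferase, was at 409, 227 and 354 normalized counts with PBS and at 2236, 767 and 1919 with LDL, higher in every library (log2 fold change 2.21, SE 0.40, limma adjusted p = 0.0473, and 0.000131 with the block). Without a mouse term, this call was kept when the LDL-treated library of mouse 2 was left out and lost when any of the other 5 was. Lpcat4, another acyltransferase, was at 425 ± 79.0 and 935 ± 331 (1.08, limma adjusted p = 0.104, and 0.00193 with the block). The lowest values were those of Acsl6, scarcely detected (-0.90, limma adjusted p = 0.270), and Agpat3 (-0.35, limma adjusted p = 0.260).

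Peroxisomal shortening completes docosahexaenoic acid synthesis, and its genes were listed with those for the oxidation of unsaturated chains. Of 14 tested, 2 were upregulated and 0 downregulated without a mouse term, and 3 and 0 with the block. The median log2 fold change was 0.15, with 10 genes higher and 4 lower. Abcd3, a peroxisomal fatty acid transporter, was at 3118, 3718 and 3261 normalized counts with PBS and at 5501, 6528 and 5425 with LDL. All LDL-treated libraries lay above all PBS-treated libraries, with a log2 fold change of 0.79 (SE 0.11, limma adjusted p = 0.0226, and 0.000665 with the block). The thiolase gene Acaa1b was at 148 ± 24.7 and 703 ± 351 (2.12, limma adjusted p = 0.0353), where its near copy Acaa1a differed by 0.16 (limma adjusted p = 0.760) and could share reads with it. Without a mouse term, Abcd3 and Acaa1b were each called in 2 of the 6 fits that left out 1 library, and were not called without any 1 of the PBS-treated libraries or LDL replicate 3. Eci2, an enoyl-CoA isomerase for unsaturated chains, was upregulated with the block only (0.74, limma adjusted p = 0.157, and 0.00659 with the block). The lowest fold changes were those of Eci1 (-0.55, limma adjusted p = 0.185) and Pecr (-0.45, limma adjusted p = 0.268).

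For the release and oxygenation of arachidonic acid, the end product of Fads1, 0 of 16 tested genes were called without a mouse term, and 3 were upregulated and 0 downregulated with the block (median log2 fold change 0.08). Ptgs2, the inducible cyclooxygenase, was at 18.4, 2.49 and 7.33 normalized counts with PBS and at 668, 23.6 and 312 with LDL in mice 1, 2 and 3. It was higher in every LDL-treated library, but by very different amounts (log2 fold change 4.39, SE 1.17, limma adjusted p = 0.106, and 0.00104 with the block). The secreted phospholipases Pla2g2a and Pla2g5 were at 8.30 ± 7.15 and 58.4 ± 41.1 with PBS and at 31.0 ± 3.08 and 119 ± 25.6 with LDL. Their log2 fold changes were 2.08 and 1.22 (limma adjusted p = 0.106 and 0.191, and 0.0154 and 0.0188 with the block). With PBS alone, the means of Ptgs2 (9.40) and Pla2g2a (8.30) were below the filter on the mean. Both genes were tested only because of their LDL-treated libraries, so the count of upregulated genes in this list depends on how genes were admitted. Ptges2 (-0.31) and Hpgd (-0.26) had the lowest fold changes (limma adjusted p = 0.373 and 0.484).

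Of 18 genes for the SREBP1, LXR, PPAR and MLX regulators of lipid synthesis, 0 were called without a mouse term, and 1 was upregulated and 2 downregulated with the block (median log2 fold change -0.14). Mylip, an LXR target that codes for a ubiquitin ligase, was at 137, 62.1 and 85.5 normalized counts with PBS and at 28.1, 19.1 and 30.1 with LDL. The groups were separate, at a log2 fold change of -1.79 (SE 0.33, limma adjusted p = 0.0508, and 0.00273 with the block). Nr1h3, which codes for LXR alpha, was at 631 ± 63.7 and 379 ± 84.5 (-0.75, limma adjusted p = 0.0770, and 0.00329 with the block). Ppard was at 535 ± 88.4 and 945 ± 338 (0.76, limma adjusted p = 0.183, and 0.00777 with the block), and Scap differed by 0.28 (limma adjusted p = 0.335). Srebf1, the gene for SREBP1 and named here after its values were seen, was at 4383, 3523 and 4271 with PBS and at 2459, 3284 and 2876 with LDL. It was separate between treatments, with a log2 fold change of -0.50 (limma adjusted p = 0.108, and 0.0379 with the block, under 1.5-fold).

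The calls of the blocked fit in these lists were kept to different degrees when a mouse was left out. Mboat1, Abcd3, Acaa1b, Ptgs2 and Mylip were called with the block when each mouse in turn was left out. Without mouse 3, whose identifier differs, Scd1, Scd2, Lpcat4, Eci2, Pla2g2a, Pla2g5, Nr1h3 and Ppard were not called. In that order, their log2 fold changes were then -1.26, -0.61, 1.02, 0.81, 2.61, 1.58, -0.71 and 0.68. Each stayed beyond 1.5-fold, so these calls were lost on the adjusted p, in a fit with fewer samples. Scd2 was not called without mouse 1 either, nor Eci2 without mouse 2.

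**Figure D5:**
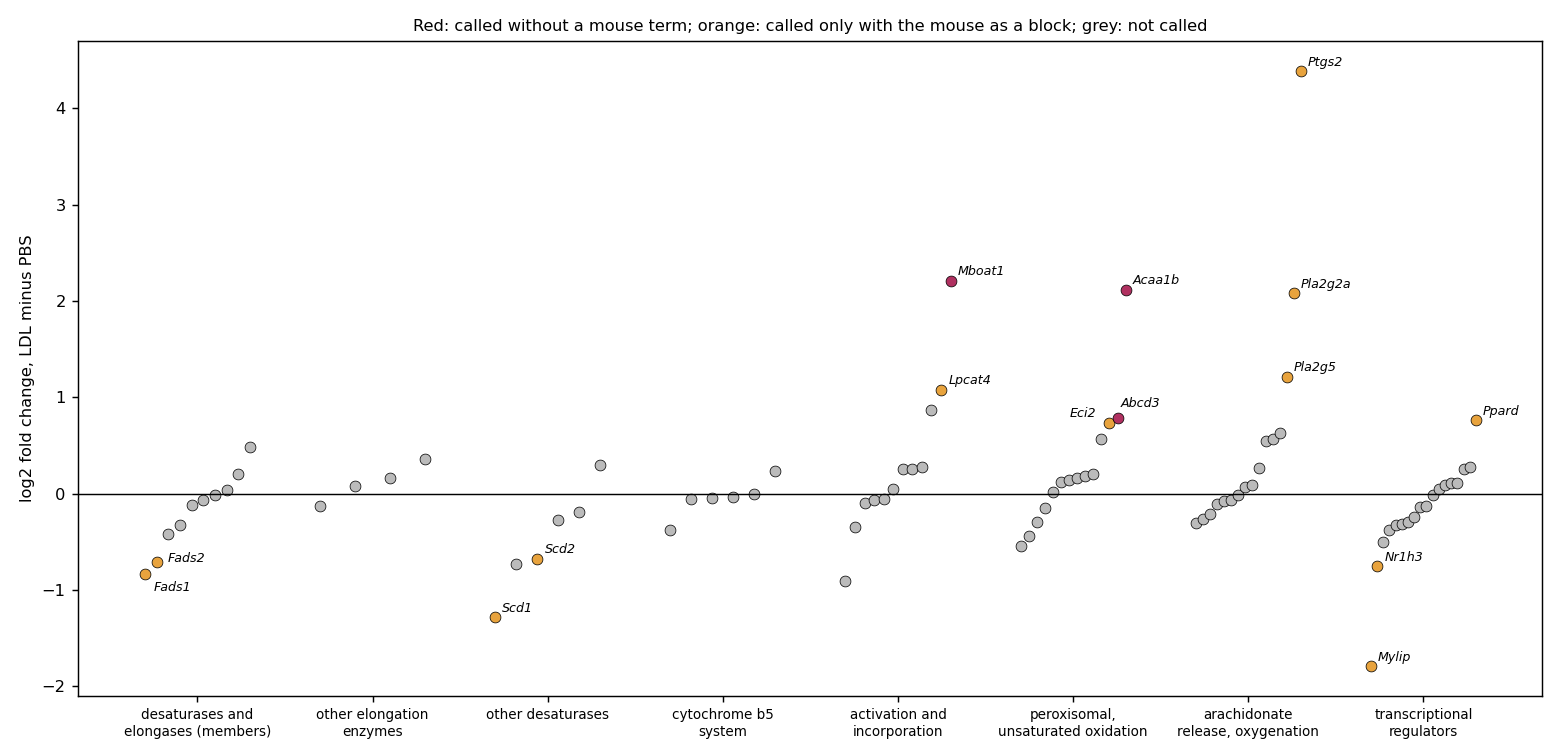
Log2 fold changes (LDL minus PBS) of the 10 genes and of 7 lists of related genes, 1 point per tested gene in rising order within its list. Red points were called without a mouse term, orange points only with the mouse as a block and grey points in neither fit. Called desaturases (Fads1, Fads2, Scd1 and Scd2) lie below 0, and the called genes of peroxisomal oxidation and of arachidonic acid release and oxygenation lie above it. Of these, Ptgs2 and Pla2g2a passed the filter on the mean only through their LDL-treated libraries.

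Markers of intestinal cell types moved between the treatments as well, and their part in the results above was not tested. Goblet cell markers summed to 51928 to 57065 normalized counts with PBS and 29304 to 36302 with LDL, and 3 of 6 were downregulated without a mouse term (Fcgbp, Spink4 and Agr2) and 4 with the block. Without a mouse term, all 3 were called without LDL replicate 2 and none without any 1 of the PBS-treated libraries or LDL replicate 3, and Fcgbp was not called without LDL replicate 1 either (limma adjusted p = 0.0650). Of 10 enterocyte markers, 1 was upregulated without a mouse term (Alpi, log2 fold change 2.13, limma adjusted p = 0.00828, lost without LDL replicate 3), and 4 were upregulated and 1 downregulated with the block. Their sum was 60293 to 100091 with PBS and 70260.0 to 107643 with LDL. Of 6 Paneth cell markers, 0 were called without a mouse term and 1 was upregulated and 3 downregulated with the block (17744 to 28695 against 13679 to 16818). For 6 stem cell markers these numbers were 0, 1 and 2 (38689 to 58800.1 against 34854 to 42380). For 6 enteroendocrine markers they were 0, 0 and 2 (9537 to 14924 against 7325 to 11510). For 4 tuft cell markers they were 0, 0 and 1 (239 to 337 against 186 to 493), and for 7 general epithelial markers 0, 2 and 0 (86799 to 90943 against 98325 to 131083). With the block, only the calls of Alpi, Apoa4, Lct, Krt18 and Spink4 among all these markers were kept when each mouse in turn was left out, and every other was lost without mouse 3. Apob, Olfm4, Smoc2, Defa17, Defa24, Tac1 and Pou2f3 were also not called without mouse 1, and Gip was called in 0 of the 3 fits. These fits hold fewer samples, so a lost call alone does not mean that the fold change fell.

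Markers of cells outside the epithelium were at low levels throughout. The 7 stromal markers summed to 30.9 to 37.3 normalized counts with PBS and 15.5 to 43.9 with LDL, and Col1a2, Col3a1, Pdgfra, Dcn and Lum were at 0 in at least 1 library. The 5 immune markers summed to 209 to 281 and 216 to 284, with Adgre1 at 0 in some libraries, and the 4 endothelial markers to 17.9 to 33.7 and 15.5 to 37.8, with Cdh5 and Kdr at 0 in some. None of these 3 lists held a called gene in either fit.

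The genes most like Fads1, Fads2 and Elovl5 over the 6 libraries were sought by Pearson's r of log2(normalized count + 1) among 11938 genes with a mean of at least 100. The 6 points share 3 mice and 2 treatments, and the highest values among so many genes are high by selection, so they are given as a description. Fads1 was most like Esrrg (r = 0.9996), which codes for an orphan nuclear receptor, Lonrf1 (0.998) and Ascc1 (0.998). Fads2 was most like Tmem170 (0.999), Tmem176b (0.999) and the ribosomal protein gene Rpl3 (0.998). Elovl5 was most like Rnu12 (0.994), Hycc1 (0.985) and Rb1cc1 (0.977).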

How the data were processed

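RNA-Seq of 6 libraries was analyzed, 3 of LDL-treated and 3 of PBS-treated organoids, grouped by their titles. Per the study's methods and the submitters' processing notes, the authors removed ribosomal RNA, prepared stranded libraries, demultiplexed with bcl2fastq 2.20, aligned reads to GRCm39 with STAR, counted them per gene with featureCounts and used DESeq2. The annotation release and the strand setting of the counting are not given in the sources used here. The deposited signal values are normalized counts, reads of a gene divided by 1 size factor per library. Within a tolerance of 0.01 read, 100.0% of the values gave whole reads. Of the 55416 genes, 12377 held no read.

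The labels give the same animal identifier to the LDL and PBS library of each replicate number, so the number pairs them. Deviations from the treatment means, taken over all genes tested, gave r = 0.484, 0.421 and 0.462 within mice 1, 2 and 3 and r = -0.368 to -0.0809 between libraries of different mice. Taking deviations from these means makes values between mice negative where those within mice are positive. The negative values are therefore no separate evidence of the pairing. Genes are not independent replicates. Libraries held 22061545 to 31073360 reads on genes. Replicates of 1 treatment differed by far more than counting error (chi-square per degree of freedom 25.1 to 343), so each counted as 1 sample. With 3 animals, p-values measure the spread between these samples.

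Log2(normalized count + 1) was compared by limma 3.58.1 in R 4.3.3 (eBayes with a trend, two-sided) over 18459 genes with a mean of at least 10, with Benjamini-Hochberg adjustment over all of them and calls at an adjusted p under 0.05 and more than 1.5-fold. The study names no pairing term for its RNA-Seq test, so the main fit had none and the block on the mouse was an alternative. Other alternatives were pseudocounts of 0.5 and 5, upper-quartile scaling, quantile normalization, no filter or one at a mean of 50, each library or mouse left out, DESeq2 1.42.0 and edgeR 4.0.16 on recovered reads, and other thresholds. The blocked fit at any fold or without a filter, and the lists' calls with a library or mouse left out, were chosen after seeing the data. Each fit was first tested on simulated data. Summaries and plots used Python 3.11.15, pandas 2.3.3, numpy 2.4.6, scipy 1.17.1 and matplotlib 3.10.9.

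Names, positions and merged exon lengths came from GENCODE M39, in which 54749 identifiers were found and 667 were not. Sequences were read from the GRCm39 genome. The named genes were the 10 members, every gene of the 7 pathway lists called in either fit, and the 2 largest rises and falls of lists with fewer than 4 called genes. The members and lists were chosen with earlier results of these data known. No test of lists was run. A few genes that are not reported here were left out of the lists.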

Additional observations from a re-analysis of the deposited data

How the results depend on the processing

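Without a mouse term, 0 of the 10 genes were downregulated, and this number moved with the processing, whereas 0 were upregulated under all 26 alternatives. It was 2 (Fads1 and Fads2) with the mouse as a block for the pairing, with the block and no filter, with no filter alone, with DESeq2 on recovered reads with or without the block, with edgeR with the block, at an unadjusted p under 0.05, and with the block and both libraries of mouse 2 left out. It was 3 with the block at any fold change, 1 with the block and without mouse 1, and 0 with the block and without mouse 3. Leaving out 1 library at a time gave 0 to 3 genes, and the 3 came without the LDL-treated library of mouse 2. At the 1.5-fold threshold the block added a call for no other member. In all, 15 of the 26 gave 0 downregulated genes. The cause of these differences was not tested, beyond the fewer samples of the fits that leave some out. Over all 18459 genes, 162 were called higher and 73 lower without a mouse term, and 1048 and 639 with the block.

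Counts in the pathway lists also moved. With the block, 2 of the other desaturases were downregulated (0 without it), 2 of the activation and incorporation genes upregulated (1 without it), 3 of the arachidonic acid genes upregulated (0 without it), and 1 of the regulators upregulated and 2 downregulated (0 and 0 without it). With 1 library left out, downregulated genes numbered 0 to 3 for the other desaturases, 0 to 1 for cytochrome b5, 0 to 2 for peroxisomal and unsaturated oxidation and 0 to 3 for the regulators. Upregulated genes numbered 0 to 2 for activation and incorporation, 0 to 2 for peroxisomal and unsaturated oxidation, 0 to 1 for arachidonic acid and 0 to 1 for the regulators.

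The log2 fold change of Fads1 ranged from -1.08 to -0.70 over 22 alternatives (called in 9), that of Fads2 from -0.92 to -0.54 (called in 8) and that of Tecr from -0.60 to -0.28 (called in 1). All 22 kept the direction of these 3 genes, and of Fads3, Elovl1, Elovl5 and Elovl7, and so did the 21 in which Fads6 had a value. Hacd2 and Hacd3, at 0.03 and -0.02, changed sign. Hacd2 was at -0.070 to 0.16 with 1 library left out (-0.0010 without PBS replicate 2) and at -0.049 with the block and without mouse 1. Hacd3 was at -0.090 to 0.073 with 1 library left out (0.06 without PBS replicate 3), 0.0047 with upper-quartile scaling, 0.0021 and 0.00085 with DESeq2 without and with the block, 0.0069 and 0.0053 with edgeR without and with the block, 0.021 with the block and without mouse 1, and 0.048 without mouse 3 with or without the block. Upper-quartile scaling and quantile normalization moved the median of all genes by 0.0199 and -0.021 on the log2 scale. Depth limits the statements on Fads6, which rest on 30 to 60 reads per library.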
